A study of Mus musculus with 8 samples.

Results

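The genes described here come from families that include the proteins that fill, hold and fuse the transmitter vesicles of a nerve terminal. They were chosen by symbol: Syt, Stx, Vamp, Snap, Sv2, Syn, Cplx, Rab3, Rims or Slc17a followed by a digit or, for Sv2 and Rab3, by a single letter. The rule therefore also takes in genes of these families that act elsewhere, such as the lysosomal carrier Slc17a5. Of 19928 genes tested, 69 met the rule, and each was read by 1 transcript cluster, the group of probes over the exons of a gene. Vamp2, whose cluster also carries the name of Ubr3, was not analysed here.

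Olfactory mucosa was taken from 8 mice of a mixed 129 x C57BL/6J background at postnatal day 3, and the total RNA of each mouse was put on 1 array. The mutant group (cKO) held 4 mice of genotype 123Cre:Lhx2(fl/fl). The 4 controls were littermates that kept an intact Lhx2 allele, 2 of genotype Lhx2(fl/+) without Cre and 2 of genotype 123Cre:Lhx2(fl/+), so that every mouse carried at least 1 floxed allele. The 123Cre transgene turns on in immature olfactory sensory neurons (OSNs), where it removes the first exons of Lhx2, which encodes a LIM-homeodomain transcription factor. Basal cells are not targeted. In tissue sections of the study, taken from older mice of this genotype, most OSNs still held Lhx2 mRNA, so the deletion was partial in them. The comparison asks how the mRNAs of the release machinery stood in the mucosa when Lhx2 was lost from a fraction of its OSNs.

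OSNs send their axons to the olfactory bulb and release glutamate there. A vesicular transporter loads the vesicle, synapsins tether it, Rab3 and Rims proteins bring it to the active zone, and a SNARE complex of a syntaxin, a SNAP-25 family protein and a synaptobrevin (VAMP) pulls vesicle and plasma membrane together, with complexin as clamp and synaptotagmin as calcium sensor. The cell bodies, and with them most of the mRNA, lie in the mucosa, while the synapses lie in the bulb.

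The sequence is shown upstream of Slc17a6 and Sv2b, the 2 members that were lower in the mutants at an adjusted p under 0.01 by limma. It is shown because Lhx2 is a homeodomain protein, and TAATTA is the core motif that such proteins can bind. The windows are from RefSeq (GRCm38.p6), run 5′ to 3′ on the strand of the gene, and hold 250 bases before and 50 bases after an annotated transcription start. Capitals mark TAATTA.
Slc17a6, upstream start, chr7:51621580-51621879, plus strand: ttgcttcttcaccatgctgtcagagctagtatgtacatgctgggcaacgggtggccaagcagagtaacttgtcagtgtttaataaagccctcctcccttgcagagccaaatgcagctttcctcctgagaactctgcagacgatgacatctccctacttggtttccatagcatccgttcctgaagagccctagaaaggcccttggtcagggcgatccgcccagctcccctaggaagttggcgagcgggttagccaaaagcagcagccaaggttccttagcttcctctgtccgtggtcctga
Slc17a6, downstream start, chr7:51624387-51624686, plus strand: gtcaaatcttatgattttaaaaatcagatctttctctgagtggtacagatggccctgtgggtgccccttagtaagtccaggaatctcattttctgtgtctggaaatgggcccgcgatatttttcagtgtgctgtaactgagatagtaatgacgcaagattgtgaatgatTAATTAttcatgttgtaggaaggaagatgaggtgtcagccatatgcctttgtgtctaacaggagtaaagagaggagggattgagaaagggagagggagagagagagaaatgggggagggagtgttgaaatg
Sv2b, most upstream start, chr7:75309213-75309512, minus strand: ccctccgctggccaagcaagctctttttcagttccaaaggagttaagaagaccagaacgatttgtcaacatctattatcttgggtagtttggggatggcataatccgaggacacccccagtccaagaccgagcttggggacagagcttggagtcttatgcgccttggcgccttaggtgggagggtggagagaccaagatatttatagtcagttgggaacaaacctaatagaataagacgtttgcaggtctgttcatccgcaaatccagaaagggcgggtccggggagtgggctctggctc

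The downstream start of Slc17a6 held TAATTA at position -81 from the start, whereas the upstream start did not. None of the 4 annotated starts of Sv2b held it. Windows were found for 54 of the 69 members (73 windows in all). There was none for Slc17a9, the member that was higher at the same threshold. TAATTA, which reads the same on both strands, lay in 3 of the 73 windows (4.11%), against 5.29% of 32851 windows of all genes. These 3 were windows of Slc17a6, Slc17a8 and Syt6. The palindromic Ebf motif, bound by transcription factors of OSNs, was found in 1 window (1.37%), that of the syntaxin gene Stx2, against 0.904% of all windows. These are matches of letters and no record of binding.

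At an adjusted p under 0.01 by limma, 3 of the 69 members differed between the groups (4.35%, against 2.13% of all genes and 0.614% of the 18720 genes that encode no chemoreceptor). The glutamate transporter Slc17a6 and the vesicle glycoprotein Sv2b were lower in the mutants (2 members, 2.9%, against 2.07% of all genes and 0.55% of genes without chemoreceptors). The nucleotide transporter Slc17a9 was higher (1.45%, against 0.0602% of all genes and 0.0641% of genes without chemoreceptors). It is 1 of only 12 genes that were higher at this threshold. The other 66 members did not pass. At an adjusted p under 0.05 the count was 5 (7.25%, against 5.54% of all genes and 2.23% of genes without chemoreceptors), with Syt16 and Snap91 added. Of these 5, 4 were lower (all genes 5.17%, genes without chemoreceptors 1.84%) and 1 was higher (0.366% and 0.39%). The calls changed with the array left out. With any 1 array left out, Slc17a9 (adjusted p 0.0159 to 0.0297) and Sv2b (0.0127 to 0.0314) no longer passed, and Slc17a6 passed only without mutant 1 or mutant 2, although its difference stayed between -0.50 and -0.40.

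**Figure D1:**
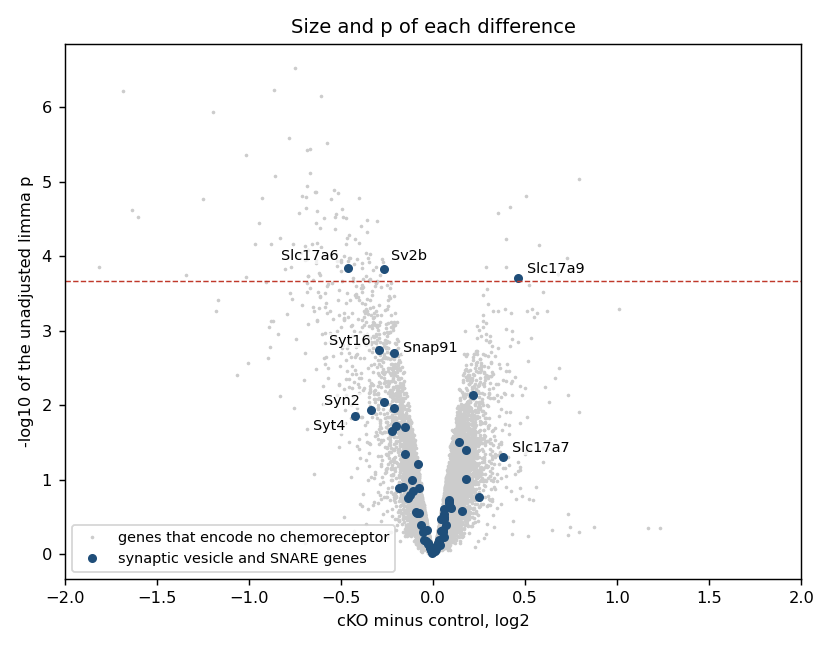
The x axis gives each gene's cKO minus control difference (log2), the y axis -log10 of its unadjusted limma p, for the 69 synaptic vesicle and SNARE genes (large points) and the genes that encode no chemoreceptor (small points). Slc17a6, Sv2b and Slc17a9 lie above the dashed line, which marks the largest p with an adjusted p under 0.01.

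As a set the members sat near 0. Their median difference was -0.0105 on the log2 scale, with quartiles of -0.11 and 0.06, against medians of 0.0261 over all genes and 0.0314 over genes that encode no chemoreceptor. The difference was below 0 in 37 members and above 0 in 32. It was below 0 in a smaller share of all genes (7503 of 19928) and of genes that encode no chemoreceptor (6334 of 18720). All mutants lay below all controls in 10 members (14.5%, against 8.43% of all genes and 4.51% of genes without chemoreceptors): Slc17a6, Sv2b, Syt16, Snap91, Syt1, Syt4, Syt5, Syn2, Stx2 and Stx12. They lay above all controls in 1 member, Slc17a9 (1.45%, against 3.18% of all genes). In the other 58 the groups overlapped. An unadjusted p under 0.05 was reached by 17 members (24.6%, against 15% of all genes and 10.8% of genes without chemoreceptors), 12 of them lower and 5 higher. The median standard error of a member's difference was 0.07.

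**Figure D2:**
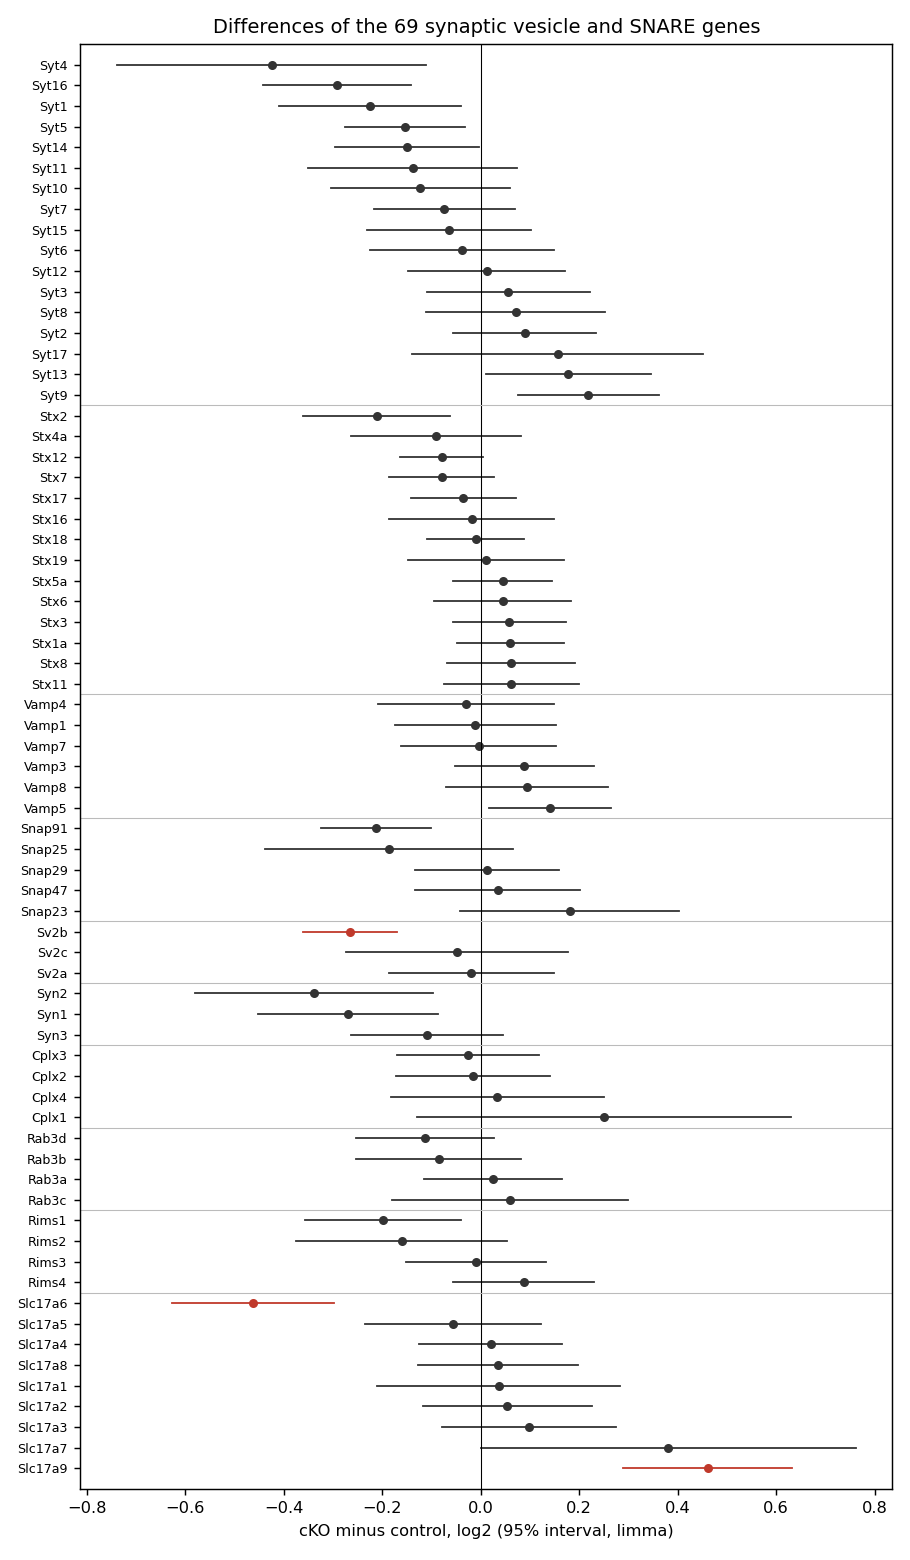
Points are the cKO minus control differences (log2) of all 69 members with their 95% limma intervals, grouped by family and ordered within it. The 3 members past an adjusted p of 0.01 are in red: Slc17a6 at -0.46, Sv2b at -0.27 and Slc17a9 at 0.46.

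Several facts of the arrays bear on these values. The Lhx2 cluster, which combines deleted and remaining exons, read 13.09 to 13.20 in the controls and 12.55 to 13.03 in the mutants (difference -0.24, SE 0.11, limma adjusted p = 0.337). The mean of 18 mature OSN markers was 12.05 to 12.13 in the controls and 11.62, 11.04, 11.56 and 11.49 in mutants 1 to 4. Of these markers 5 were lower at an adjusted p under 0.01 by limma and 0 were higher (17 and 0 at an unadjusted p under 0.05), with a median difference of -0.59, and Omp, their defining gene, differed by -0.97 (SE 0.14, adjusted p = 0.00605). The mean of 12 immature OSN markers was 12.04 to 12.11 in the controls and 11.82 to 12.02 in the mutants, and 1 of them was lower. In RNA of whole mucosa, fewer cells of a type and less RNA per cell cannot be told apart. Mutant mouse 2 was the lowest of its group in the mature OSN markers and in 32 of the 69 members (11 to 14 for the other mutants), and is also the only mutant whose sample title carries the letter B and the only female one by Xist and Y-linked mRNAs. Mutant mouse 4 was the highest of the 8 arrays in 14 of 15 brain genes (list mean 8.53, against 7.50 to 7.86 on the other arrays) and in 4 of 4 tooth enamel genes (10.70, against 7.14 to 8.43), lists drawn up after the arrays were seen.

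The vesicular transporters Slc17a6 and Slc17a9 are set against each other here, a pair named with results of these data known. Slc17a6 encodes VGLUT2, which loads glutamate into the vesicles of OSN terminals. Its log2 value was 11.57, 11.55, 11.50 and 11.67 in controls 1 to 4, and 11.23, 10.92, 11.18 and 11.12 in mutants 1 to 4. Each mutant lay below each control, and mouse 2 was the lowest. The mean fell from 11.58 ± 0.07 (SD, n = 4) to 11.11 ± 0.14 (SD, n = 4), a difference of -0.46 (SE 0.07, 95% interval -0.63 to -0.30, limma adjusted p = 0.00797), which puts the mutants at 72.6% of the control level. Without mouse 2 the difference was -0.40 (adjusted p = 0.00434). The difference was -0.41 among arrays of title letter A and -0.64 among those of letter B, where mouse 2 is the only mutant. The letter A controls are all 123Cre:Lhx2(fl/+) and the letter B controls all Lhx2(fl/+). In values given within letters, here and below, letter and control genotype therefore cannot be told apart. The mature OSN markers were lower on the same 4 arrays, and their part in the Slc17a6 value was not tested.

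Slc17a9 encodes VNUT, which loads ATP and other nucleotides into secretory vesicles of many cell types. It moved the opposite way. The log2 value was 8.19, 8.04, 8.09 and 7.92 in controls 1 to 4, and 8.63, 8.61, 8.46 and 8.39 in mutants 1 to 4. No mutant overlapped a control, mouse 2 lay among the other mutants, and mouse 4 was the lowest of them. The mean rose from 8.06 ± 0.11 (SD, n = 4) to 8.52 ± 0.12 (SD, n = 4), a difference of 0.46 (SE 0.08, 95% interval 0.29 to 0.63, limma adjusted p = 0.0096), or 138% of the control level. Within title letters it was 0.49 (letter A) and 0.49 (letter B). The call is close to the threshold: with sex as a block the adjusted p was 0.0127 at a difference of 0.47, and with each array centred on the genes that encode no chemoreceptor it was 0.0126 at 0.44. Mean levels of the microvillous cell markers were 9.09 to 9.22 in the controls and 9.20 to 9.32 in the mutants, and none of these 8 markers passed the threshold, though 2 had an unadjusted p under 0.05. The means of some other lists separated fully in the direction of Slc17a9. For 6 mast and lymphoid cell markers the mean was 7.39 to 7.41 in the controls and 7.52 to 7.71 in the mutants. Of these 6, Cd69 was higher (0.51, SE 0.06, limma adjusted p = 0.00351), and Kit (0.16) had groups that did not overlap. The groups overlapped in the other 4, Mcpt4 (0.32), Cpa3 (0.08), Cd3e (0.06) and Cd79a (0.04). The mean of 6 progenitor markers was 11.46 to 11.51 in the controls and 11.53 to 11.62 in the mutants. Past the threshold by limma there were 0 of them, with 3 higher and 1 lower at an unadjusted p under 0.05. The part of these cells in the Slc17a9 value was not tested.

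**Figure D3:**
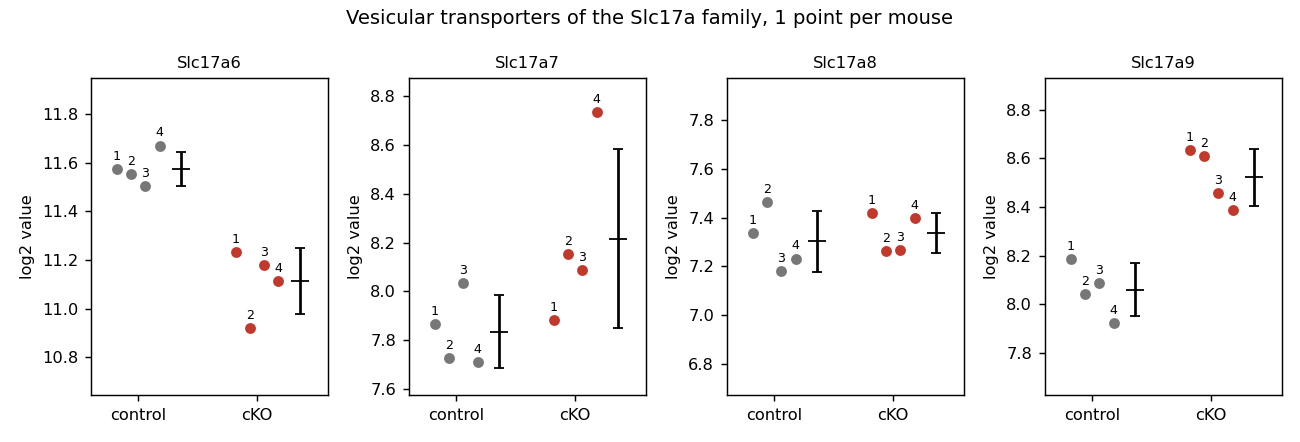
Log2 values of the 4 vesicular transporters, 1 numbered point per mouse, with the mean and SD of each group beside the points. The Slc17a6 and Slc17a9 groups separate in opposite directions, the Slc17a8 groups overlap, and in Slc17a7 mutant mouse 4 stands at 8.74.

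Set against each other on the same array, Slc17a6 minus Slc17a9 was 3.39, 3.51, 3.42 and 3.75 in controls 1 to 4 and 2.60, 2.31, 2.72 and 2.73 in mutants 1 to 4. The 2 clusters have different probes, so the size of this gap has no meaning in itself, but its shift between the groups does. Group means were 3.52 ± 0.16 and 2.59 ± 0.19 (SD, n = 4 each), so the glutamate-to-nucleotide transporter ratio of the mutants stood at 52.7% of the control ratio. The pair was named with the results known, so no test is given for it.

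Of the other vesicular glutamate transporters, neither passed the test. Slc17a7 (VGLUT1), the main transporter of cortical neurons, read 7.87, 7.73, 8.03 and 7.71 in the controls and 7.88, 8.15, 8.09 and 8.74 in the mutants (difference 0.38, SE 0.17, adjusted p = 0.332). The groups overlapped, and mouse 4, the array with the highest brain gene levels, was the highest. Without it the difference was 0.21 (adjusted p = 0.401), and the part of the brain genes was not tested. Slc17a8 (VGLUT3) differed by 0.03 (adjusted p = 0.878). The lysosomal sialic acid carrier Slc17a5, named here after its values were seen, differed by -0.06 (adjusted p = 0.81), and the kidney and gut transporters Slc17a1 to Slc17a4 by 0.02 to 0.10, with overlapping groups in all 4.

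Beside the transporters, Sv2b was the only member past the threshold in the fit with all 8 arrays. SV2 proteins are transporter-like glycoproteins of the vesicle membrane that act on the readiness of vesicles for calcium-triggered release. Sv2b read 10.91, 10.81, 10.83 and 10.89 in controls 1 to 4, and 10.57, 10.61, 10.62 and 10.58 in mutants 1 to 4. The mutants lay close together, all below the controls, and mouse 2 did not stand apart. The difference was -0.27 (SE 0.04, 95% interval -0.36 to -0.17, limma adjusted p = 0.00816), at 83.1% of the control level, and was -0.27 within letter A and -0.25 within letter B. With title letter as a fixed block the call was lost (-0.26, adjusted p = 0.0122), as it was with sex as a block (-0.25, adjusted p = 0.0125). The mature OSN markers were lower on the same 4 arrays, and their part in the Sv2b value was not tested. Its paralogs Sv2a (-0.02, adjusted p = 0.942) and Sv2c (-0.05, adjusted p = 0.874) had overlapping groups.

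The synapsins, which tether vesicles to one another and to actin, were all below 0 and none passed the threshold. Syn2 read 10.43, 10.70, 10.57 and 10.71 in the controls and 10.36, 9.96, 10.39 and 10.36 in the mutants (difference -0.34, SE 0.11, adjusted p = 0.137), without overlap but with mouse 2 far below the rest. Syn1 differed by -0.27 (SE 0.08, adjusted p = 0.114) and Syn3 by -0.11 (SE 0.07). Leaving mouse 2 out gave -0.24 for Syn2 and -0.21 for Syn1. Mouse 2 was also the lowest in the mature OSN markers, whose part in these values was not tested.

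The synaptotagmins, vesicle proteins of which several sense calcium, numbered 17. At an adjusted p under 0.01, 0 passed by limma, 7 had an unadjusted p under 0.05 (5 lower, 2 higher, where 15% of all genes and 10.8% of genes without chemoreceptors did), and the median difference was -0.06. Syt16, an atypical member of the family, passed the looser threshold of 0.05: it read 8.53, 8.47, 8.42 and 8.63 in the controls and 8.32, 8.08, 8.22 and 8.26 in the mutants (difference -0.29, SE 0.07, adjusted p = 0.0379), without overlap. Syt1, the fast calcium sensor of release, differed by -0.22 (SE 0.08, adjusted p = 0.211), also without overlap. Syt9, another calcium sensor, lay on the other side of 0 (0.22, SE 0.06, adjusted p = 0.0979), with mouse 4 inside the range of the controls.

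Syt4 and Syt5, named after their values were seen, complete the synaptotagmins whose groups did not overlap. Syt4 had the lowest difference of the family, -0.42, with a wide error (SE 0.14, adjusted p = 0.155). Its mutants read 9.91, 9.26, 9.81 and 9.85 against 10.01 to 10.26 in the controls, and without mouse 2 the difference was -0.28 (adjusted p = 0.0844). Syt5 differed by -0.15 (SE 0.05, adjusted p = 0.192).

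In the SNARE complex itself no member passed the test. The plasma membrane syntaxin Stx1a differed by 0.06 (SE 0.05, adjusted p = 0.646). Snap25 read 12.55, 12.59, 12.40 and 12.70 in the controls and 12.49, 12.04, 12.45 and 12.51 in the mutants (difference -0.19, SE 0.11, adjusted p = 0.507), and without mouse 2 the difference was -0.08. Snap23, its paralog in non-neuronal cells, differed by 0.18 (SE 0.10, adjusted p = 0.458).

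Of the 14 syntaxins, 0 passed by limma at an adjusted p under 0.01, where 2.13% of all genes and 0.614% of genes without chemoreceptors did. Their differences ran from -0.21 to 0.06, and 1 had an unadjusted p under 0.05 (15% of all genes, 10.8% of genes without chemoreceptors). That one, Stx2, a plasma membrane syntaxin found in many tissues, read 11.39, 11.19, 11.39 and 11.31 in the mutants against 11.43 to 11.65 in the controls (difference -0.21, SE 0.07, adjusted p = 0.132). The endosomal syntaxin Stx12 varied little within the groups, with controls at 11.74 to 11.76 and mutants at 11.63 to 11.69 (difference -0.08, SE 0.04, adjusted p = 0.372). Both had all mutants below all controls, as had 8.43% of all genes and 4.51% of genes without chemoreceptors.

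The 6 synaptobrevins had differences from -0.03 to 0.14. Past the threshold there were 0 (2.13% of all genes, 0.614% of genes without chemoreceptors), and at an unadjusted p under 0.05 there was 1 (15% and 10.8%). Vamp5, known from muscle, had the smallest p (0.14, SE 0.05, adjusted p = 0.256), followed by Vamp3 (cellubrevin, 0.09, SE 0.06). Vamp2, the main synaptobrevin of neurons, was not analysed here.

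Snap91 met the symbol rule but is no SNARE protein. It encodes AP180, a clathrin adaptor that retrieves vesicle membrane after release. It read 11.25, 11.21, 11.38 and 11.31 in controls 1 to 4, and 11.08, 11.03, 11.08 and 11.11 in mutants 1 to 4. The groups did not overlap, and the difference of -0.21 (SE 0.05) passed the looser threshold (limma adjusted p = 0.0406).

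Among the 4 Rims, 4 Rab3 and 4 Cplx genes, which position and clamp the vesicle, 0 passed by limma and 1, Rims1, had an unadjusted p under 0.05. Over all genes the shares were 2.13% and 15%, and over genes without chemoreceptors 0.614% and 10.8%. Rims1 and Rims2, scaffolds of the active zone, differed by -0.20 (SE 0.07, adjusted p = 0.191) and -0.16 (SE 0.09, adjusted p = 0.504). For the vesicle GTPase Rab3a the difference was 0.02 (SE 0.06), for Rab3b -0.09 (SE 0.07) and for Rab3d -0.11 (SE 0.06, adjusted p = 0.46). The complexin Cplx1 read 8.09, 8.46, 8.28 and 8.20 in the controls and 8.16, 8.42, 8.45 and 9.02 in the mutants (0.25, SE 0.17, adjusted p = 0.568). As in Slc17a7, mouse 4 was the highest, and without it the difference was 0.08. Cplx2 (-0.02) and Cplx3 (-0.03) were near 0.

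**Figure D4:**
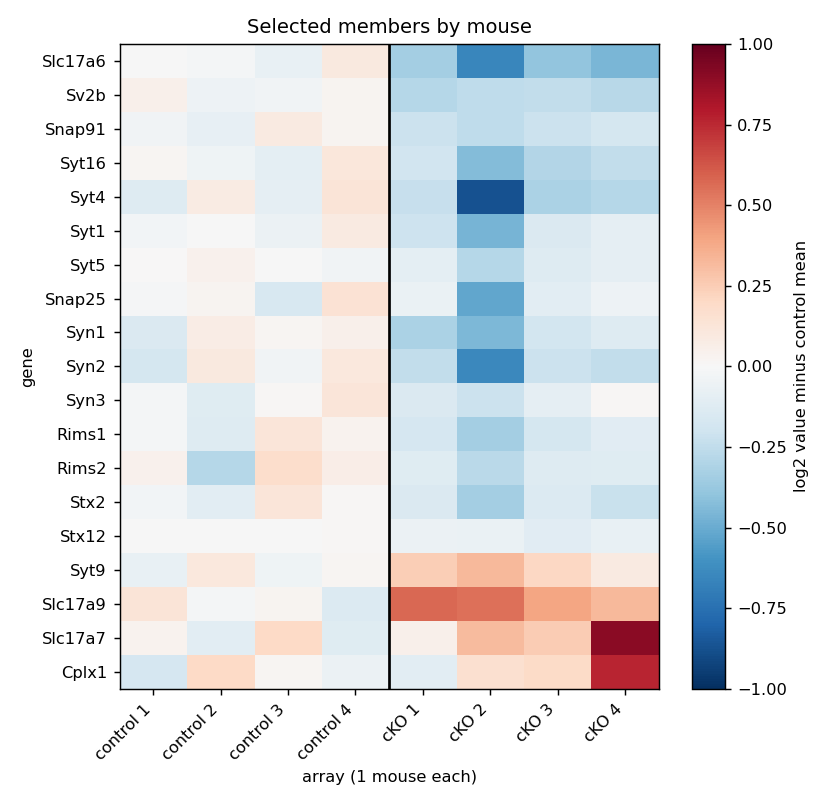
Colours give the log2 value of 19 members (rows) on each of the 8 arrays (columns) minus the gene's control mean. Mutant 2 is the lowest array in most of the blue genes, Sv2b and Snap91 have 4 similar mutants, and the darkest red cells are Slc17a7 and Cplx1 in mutant 4.

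Slc17a7 and Cplx1 are set here beside the brain list, which was drawn up after the arrays were seen. The highest control read 8.03 for Slc17a7 and 8.46 for Cplx1. Mutants 1 to 3 reached at most 8.15 and 8.45, while mutant 4 reached 8.74 and 9.02. The same array stood at 8.53 in the brain list, where the other mutants stood at 7.53, 7.61 and 7.73. The part of the brain genes in the Slc17a7 and Cplx1 values was not tested.

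**Figure D5:**
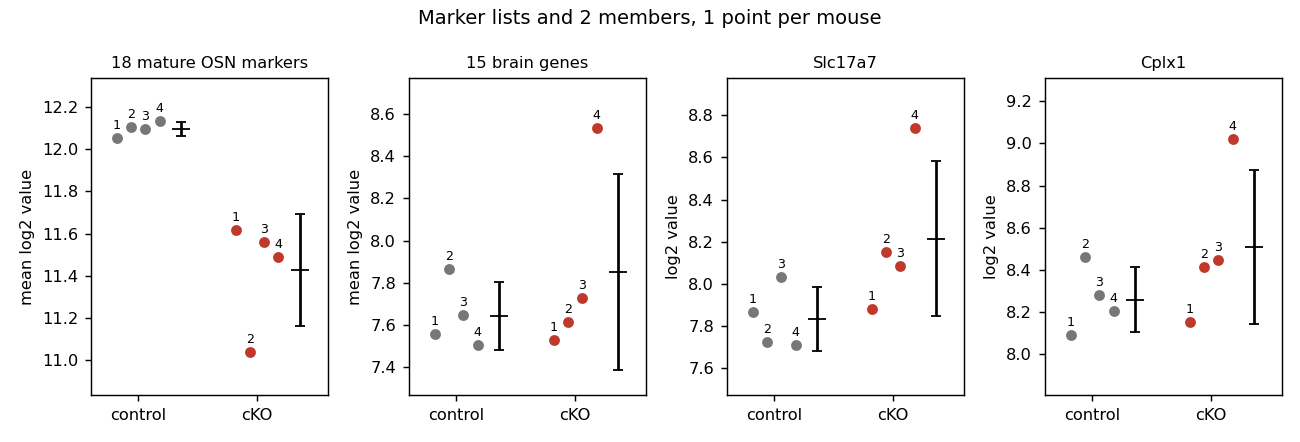
Mean log2 value of 18 mature OSN markers and of 15 brain genes, and log2 values of Slc17a7 and Cplx1, 1 numbered point per mouse with group mean and SD. The brain genes were listed after the arrays were seen. Mutant 2 is lowest in the OSN markers (11.04), and mutant 4 is highest in the brain genes (8.53), Slc17a7 (8.74) and Cplx1 (9.02).

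Outside the symbol rule, 78 further genes of vesicle docking, fusion and recycling were tested. Of these 1 was lower and 0 were higher at an adjusted p under 0.01, 5 were lower at an adjusted p under 0.05, and 9 were lower and 4 higher at an unadjusted p under 0.05. Over all genes the shares at these thresholds, both directions together, were 2.13%, 5.54% and 15%. Over genes that encode no chemoreceptor they were 0.614%, 2.23% and 10.8%. The counts of this list, which holds no chemoreceptor, lie near the shares over all genes and above those over genes without chemoreceptors. The median difference was -0.0064. The one past the threshold, Stxbp5l (tomosyn-2), binds syntaxin and limits fusion. It read 10.42, 10.15, 10.57 and 10.49 in the controls and 9.82, 9.52, 9.71 and 9.79 in the mutants (difference -0.70, SE 0.10, limma adjusted p = 0.00613), at 61.7% of the control level. That is a larger difference than in any of the 69 members, and its groups did not overlap.

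The 4 that passed only the looser threshold were Napa, Ppfia2, Dnm1 and Syp. Napa (alpha-SNAP, which with NSF takes spent SNARE complexes apart) differed by -0.22 (adjusted p = 0.0226) and Ppfia2 (liprin-alpha-2, an active zone scaffold) by -0.27 (adjusted p = 0.0406). Dnm1 (dynamin-1, which cuts endocytic vesicles free) differed by -0.19 (adjusted p = 0.0421). Syp (synaptophysin, the classical vesicle marker), named after its values were seen, differed by -0.37 (adjusted p = 0.0442).

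Genes that handle the same transmitters were read beside the transporters. Of 29 genes of nucleotide signalling, 1 was lower and 0 were higher by limma, while 2 lower and 0 higher had an unadjusted p under 0.05. The shares at these thresholds were 2.13% and 15% of all genes, and 0.614% and 10.8% of genes without chemoreceptors. The gene past the threshold was P2rx4, an ATP-gated cation channel, at 11.13 to 11.26 in the controls and 10.73 to 10.83 in the mutants (difference -0.40, SE 0.05, limma adjusted p = 0.00352), opposite in sign to Slc17a9. The call was lost in 6 of 8 fits with an array left out, all but those without mutant 1 or mutant 2 (adjusted p up to 0.0151), and with either control genotype alone (adjusted p up to 0.0539). The ectonucleotidase Entpd2 differed by -0.34 (adjusted p = 0.126), and the ATP receptor P2ry2 by 0.19 (adjusted p = 0.485). P2ry10 (0.16, adjusted p = 0.446) read under the vomeronasal receptor level in both groups. Of 28 genes of vesicular loading and transmitter uptake or synthesis, 0 passed by limma. An unadjusted p under 0.05 was reached by 3 of the 28, against 15% of all genes and 10.8% of genes without chemoreceptors. Slc1a2 (GLT-1), which takes up glutamate, came closest (-0.59, SE 0.14, adjusted p = 0.0506). It passed only with title letter as a fixed block (-0.68, adjusted p = 0.00397), 1 of 14 other settings. It passed in 0 of 8 fits with an array left out (adjusted p 0.0341 to 0.139). Mutant 2 read 8.49 for this gene, against 8.92 to 9.20 in the other mutants. Next came the glutamine synthetase gene Glul (-0.21, adjusted p = 0.0959). The glial glutamate transporter Slc1a3 differed by 0.33 (adjusted p = 0.332) and Gad2, which makes GABA, by 0.16 (adjusted p = 0.387).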

How the data were processed

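The values deposited by the authors are on the log2 scale, for 28312 transcript clusters of the Affymetrix GeneChip Mouse Gene ST array, from Affymetrix Expression Console per the submitters' processing notes. Version, background correction and summarization were not given in the sources used here, and background left under a log2 value compresses the change of dim genes. By the platform annotation 21759 clusters carry 1 gene symbol, 1605 carry several and 4948 are unnamed. Single-symbol clusters were used, and for 994 genes with several the one with the highest mean was kept. For 0 members were the values identical to those of another cluster. All 69 members had group means above the median level of 162 vomeronasal receptor genes (5.36), and array medians lay between 9.13 and 9.21.

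The difference of 4 cKO and 4 control arrays was tested with limma 3.58.1 in R 4.3.3 (lmFit, eBayes, two-sided), with Benjamini-Hochberg adjustment over all 19928 genes and a threshold of 0.01. The number of arrays limits the precision. The members and the gene lists were chosen with earlier results of these data known. Named were Slc17a6 to Slc17a9, core release genes, members with an adjusted p under 0.05, the 2 smallest p of each family, up to 4 of each further list, and Lhx2, Omp and Gap43 (-0.29, SE 0.12, adjusted p = 0.268). Gene symbols and promoter windows came from RefSeq (GRCm38.p6). Replicate numbers follow accession order and pair nothing. Title letter (A or B, meaning not stated) and genotype coincide among the controls.

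Other settings were a t-test, a looser threshold of 0.05, eBayes with trend and robust estimation, quantile normalization, and arrays centred on the non-chemoreceptor genes. Further ones were low genes removed, no choice among clusters, Rab30 to Rab39 added as members, and blocks for title letter and for sex. Weighted arrays, only 1 of the control genotypes, and each array removed in turn were also used. The methods of the study name a t-test too, but here it was run without their normalization to mature OSN mRNAs. Removing mutants 2 and 4 together was chosen after seeing the data.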

Additional observations from a re-analysis of the deposited data

Results flagged for a closer look

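Within a group of 4 arrays, a value was taken to stand apart when its gap to the nearest other array, as a share of the group's range, exceeded Dixon's critical value at 95%. Of 62 groups tested (both groups of 31 named members) 4 did, all in mutant mouse 2. Chance alone gives such a gap in about 5% of groups. Snap25, the SNARE protein of the plasma membrane, read 12.04 in this mouse and 12.45 to 12.51 in the other mutants. Rims2, the active zone scaffold, read 9.61 against 9.759 to 9.765 (and 9.60 in control 2), Syn2 9.96 against 10.36 to 10.39, and Syt4 9.26 against 9.81 to 9.91. Without mouse 2 their differences were -0.08, -0.12, -0.24 and -0.28. The same mouse was the lowest in the mature OSN markers (11.04, against 11.49 to 11.62 in the other mutants), and the part of these cells in its values was not tested.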

How the results depend on the processing

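No paired analysis was possible because the replicate numbers follow accession order and mark no shared litter, batch or day. Of 69 members, 3 passed in the reported fit (2 lower, 1 higher), and Slc17a6, Sv2b and Slc17a9 also passed with trended and robust eBayes, with array weights, and with low genes left out (62 members tested). Counts fell to 0 in both directions with a t-test (Slc17a6 -0.46, adjusted p = 0.0588, and Slc17a9 0.46, adjusted p = 0.0624). They also did so with the Lhx2(fl/+) controls alone (-0.45, adjusted p = 0.0878, and 0.41, adjusted p = 0.105). The same held with the 123Cre:Lhx2(fl/+) controls alone (-0.47, adjusted p = 0.0867, and 0.52, adjusted p = 0.0676), and with mutants 2 and 4 left out (-0.37, adjusted p = 0.0261, and 0.49, adjusted p = 0.032). Over all genes the t-test called 1 gene and either single control genotype 0. Because the study normalized to mature OSN mRNAs before its t-test and this was not done here, that count is not the study's. At an adjusted p under 0.05 the count was 5 (4 lower). Sex as a block left 1 (Slc17a6), with 0 higher (Slc17a9 0.47, adjusted p = 0.0127). Quantile normalization and title letter as a fixed block left 1 lower, without Sv2b (adjusted p = 0.0104 and 0.0122). Centring (Slc17a9 0.44, adjusted p = 0.0126), every cluster kept (0.46, adjusted p = 0.0101) and title letter as a random block (0.46, adjusted p = 0.0106) left 0 higher.

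Leaving out each array in turn gave 0 to 1 members, 0 to 1 lower and 0 to 0 higher. Slc17a6 then ranged from -0.50 to -0.40 and Slc17a9 from 0.42 to 0.51, and the calls over all genes ranged from 30 to 676. Of the other release genes, counted as 1 in the reported fit, 0 passed with the t-test, either single control genotype or mutants 2 and 4 left out, 2 with trended eBayes or sex as a block, 5 at an adjusted p under 0.05, and 0 to 1 with an array left out.

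Over all settings and the 45 named genes other than Slc17a6 and Slc17a9, 916 of 987 values kept direction and side of the threshold, 43 lost the call, 9 gained one and 19 changed sign. Most of the 45 did not pass in the reported fit and count as kept while they stay uncalled. All 43 losses belong to Sv2b, P2rx4, Stxbp5l and Omp, the only ones that passed. In the 8 fits with an array left out, the call was lost in 8 for Sv2b, 6 for P2rx4, 5 for Stxbp5l and 6 for Omp. The 19 changes of sign belong to genes near 0 that did not pass in the reported fit. With the Lhx2(fl/+) controls alone, Slc17a8 was -0.0625, Cplx2 0.0082 and Sv2c 0.0789. With the 123Cre:Lhx2(fl/+) controls alone, Cplx3 was 0.0531 and Slc17a5 0.0406. Array weights gave 0.0172 for Sv2a, sex as a block 0.0057 for Cplx2, and quantile normalization 0.0067 for Cplx3. Without mutants 2 and 4, Sv2a was 0.0236 and Cplx3 0.0002. With single arrays left out, values of changed sign were -0.0066 for Slc17a8, 0.0513 for Sv2a (lowest -0.0612), 0.0121, 0.0254 and 0.0040 for Cplx2 (lowest -0.0670), -0.0064 and -0.0070 for Rab3a (highest 0.0569), 0.0231 for Cplx3 (lowest -0.0700) and 0.0081 for Sv2c (lowest -0.1405), and Slc17a8 reached 0.0878. The causes of these shifts were not tested.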

Other observations

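A pair of further synaptotagmins, singled out after their values were seen, reached an unadjusted p under 0.05 without passing the adjusted threshold. Syt13 read 8.52 to 8.81 in the controls and 8.76 to 8.98 in the mutants (difference 0.18, SE 0.07, limma adjusted p = 0.295). Syt14 read 10.24 to 10.49 in the controls and 10.19 to 10.29 in the mutants (difference -0.15, SE 0.06, limma adjusted p = 0.315).

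By Y-linked mRNAs 5 arrays were male and 3 female. Among the male arrays Xist, which is made from the inactive X chromosome of females, read 6.74 and 7.48 on 2 arrays and 9.20, 9.32 and 9.85 on the other 3. Whether tissue of several mice was mixed on these 3 arrays was not tested, and the fit with sex as a block took all 5 as male.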
